A study of Mus musculus with 2 samples.

Results

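The circadian clock genes described here are 10 of the 31053 genes in the count matrices of this mouse skin study, found by symbol. They comprise 8 in-phase members (Dbp, Tef, Hlf, Nr1d1, Nr1d2, Per1, Per2 and Per3) and 2 antiphase members (Arntl and Clock). The study sorted Pdgfra-lineage cells from the dermis to ask how dermal fibroblasts differ between untreated skin and skin with imiquimod-induced, psoriasis-like inflammation. Both groups were C57BL/6 mice of the PdgfraDreER-tdTomato genotype, aged 8 weeks, in which a drug-inducible Dre recombinase under Pdgfra control switches on the red reporter tdTomato. The untreated (UT) library came from skin with no treatment and the IMQ library from skin that received imiquimod, a Toll-like receptor 7 agonist, for 7 days. Both were libraries of live dermal cells sorted as CD45- (not of the blood lineage) and tdTomato+, so a cell in which Pdgfra had once been active carries the label, and the sort was on that label and not on Pdgfra at harvest. There was 1 library per group, with no replicate, so no test was possible, and intervals cover the counting error of unique molecular identifiers (UMIs) only. The time of day of tissue collection is not given in the sources used here. Mouse, library, collection time and treatment therefore cannot be told apart in any ratio below. The panel was chosen from UMI counts of these same libraries, in which Dbp was already known to be far higher in IMQ, so every IMQ over UT value is a description.

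The mammalian clock is a transcriptional feedback loop that runs in nearly every cell, skin fibroblasts included. CLOCK and ARNTL (also called BMAL1) form a heterodimer that binds E-boxes and activates the Per and Cry genes, Nr1d1, Nr1d2, Dbp and Tef, and the PER and CRY proteins then block that heterodimer. NR1D1 and NR1D2 (REV-ERBα and REV-ERBβ) repress Arntl and Clock at ROR elements, so the abundance of Arntl RNA runs against that of the E-box targets over the day. DBP, TEF and HLF are proline and acidic amino acid-rich bZIP factors that act at D-boxes and carry the rhythm to output genes.

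Promoter sequences show which of these elements lie close to the start sites of the genes counted here. RefSeq windows on GRCm38.p6, running from 250 bases before to 50 after an annotated start, were found for 9 of the 10 members, 14 windows in all, and Per2 had no entry. Both strands were searched for the E-box CACGTG, the related CACGTT, the D-boxes TTATGTAA and TTACGTAA, the ROR and REV-ERB elements TAGGTCA and TGGGTCA, and the cyclic AMP response element TGACGTCA, and no 2 matches overlapped. Each of the 5 windows below has at least 1 match and is written 5′ to 3′ on the strand of the gene, with the matched bases in capitals. The Tef window (chr15:81802423-81802722, plus strand) holds CACGTG, the Per1 window (chr11:69098699-69098998, plus) holds CACGTG, and the Nr1d1 window (chr11:98775328-98775627, minus) holds CACGTT on the strand opposite to the gene. The Per3 window (chr4:151044616-151044915, minus) holds TTATGTAA at 2 positions, and the second of 2 Arntl windows (chr7:113207261-113207560, plus) holds TAGGTCA just after its start.
Tef: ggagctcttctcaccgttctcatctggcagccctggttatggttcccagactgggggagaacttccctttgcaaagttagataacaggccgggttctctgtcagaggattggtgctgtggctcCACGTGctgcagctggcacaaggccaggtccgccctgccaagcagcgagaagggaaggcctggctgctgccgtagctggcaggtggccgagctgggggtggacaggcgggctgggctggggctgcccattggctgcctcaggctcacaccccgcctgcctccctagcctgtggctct
Per1: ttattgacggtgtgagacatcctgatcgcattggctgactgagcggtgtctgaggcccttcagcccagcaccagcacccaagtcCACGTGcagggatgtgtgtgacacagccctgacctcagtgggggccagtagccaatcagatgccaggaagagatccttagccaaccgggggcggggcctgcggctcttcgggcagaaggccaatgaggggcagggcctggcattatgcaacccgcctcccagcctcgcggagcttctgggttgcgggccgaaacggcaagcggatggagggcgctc
Nr1d1: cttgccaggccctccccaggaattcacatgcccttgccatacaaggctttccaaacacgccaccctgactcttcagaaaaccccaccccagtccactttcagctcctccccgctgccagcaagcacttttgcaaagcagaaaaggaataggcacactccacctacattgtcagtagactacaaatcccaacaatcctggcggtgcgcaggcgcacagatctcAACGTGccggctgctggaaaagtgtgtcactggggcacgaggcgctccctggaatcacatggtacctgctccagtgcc
Per3: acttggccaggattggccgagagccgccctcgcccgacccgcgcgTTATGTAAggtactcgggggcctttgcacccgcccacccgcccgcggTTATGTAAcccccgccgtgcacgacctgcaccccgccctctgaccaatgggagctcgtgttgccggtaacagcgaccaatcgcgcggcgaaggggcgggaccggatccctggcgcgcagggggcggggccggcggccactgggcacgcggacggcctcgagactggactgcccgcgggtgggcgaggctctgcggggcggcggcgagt
Arntl: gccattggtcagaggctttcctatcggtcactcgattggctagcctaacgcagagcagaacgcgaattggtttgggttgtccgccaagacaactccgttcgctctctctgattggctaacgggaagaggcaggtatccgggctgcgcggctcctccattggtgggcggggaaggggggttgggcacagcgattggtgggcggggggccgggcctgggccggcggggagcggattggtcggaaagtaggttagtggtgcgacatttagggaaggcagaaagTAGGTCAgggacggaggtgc
The Tef E-box began 127 bases before the start, that of Per1 166 before and the Nr1d1 match 28 before. The Per3 D-boxes began 205 and 158 bases before the start. Over all 32851 windows of the table, CACGTG was present in 7.15%, CACGTT in 4.68%, TTATGTAA in 0.938%, TTACGTAA in 0.119%, TAGGTCA in 2.61%, TGGGTCA in 3.98% and TGACGTCA in 1.79%. A second Tef window also held CACGTG, the Hlf window held TGACGTCA 9 bases before its start, and none of the motifs was found in the windows of Dbp, Nr1d2 or Clock, which says only that these letters are not in those windows.

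Members were counted in 3 sets of cell barcodes. The main set kept barcodes with 200 to 5000 detected genes and at most 5% of UMIs from mitochondrial (mt-) genes, which left 1045 UT barcodes with 1104798 UMIs (median 741 per barcode) and 571 IMQ barcodes with 460947 UMIs (median 659). A wider set allowed 10% mt- UMIs (1301 UT and 1043 IMQ barcodes), and the third held every deposited barcode (1415 and 5047). Levels are CPM (counts per 1000000 UMIs of the library), each with a 95% exact Poisson interval, and ratios carry an exact 95% conditional interval. The tags come from 3′ ends and are not a measure per transcript length, so levels were compared between libraries within a gene and not between genes. In the main set, the 8129 genes with at least 10 UMIs had a median log2 ratio of IMQ over UT of -0.61, beside 14.6% of IMQ UMIs and 1.38% of UT UMIs that were assigned to Gm42418, a gene model over a ribosomal RNA locus. Values relative to that median gene are therefore given for the main results. The libraries shared 1 barcode sequence, which the main set did not keep in both. Summed fibroblast markers (7 of 7 detected in each library) stood at 100312 CPM in UT and 163887 in IMQ, with Pdgfra itself at 49 and 18 UMIs. Of the other marker lists, keratinocyte markers stood at 1020 CPM in UT and 15.2 in IMQ (4 and 3 of 5 detected), myeloid markers at 1334 and 210 (5 of 5 in each), and T cell markers at 6.34 and 0 (4 and 0 of 5). In UT, Krt10 made up 1108 of the 1127 keratinocyte UMIs, and 1 barcode held 710 of the 798 Cd74 UMIs. Endothelial (38.9 and 19.5 CPM) and mural markers (111 and 17.4) were also lower in IMQ in the main set. The endothelial sum was instead higher in IMQ in the 10% set (33.4 and 111 CPM) and over all barcodes (30.2 and 49.2). In the main set all 17 Cldn5 UMIs of UT were in 1 barcode, and Des made up 114 of the 123 mural UMIs of UT. Melanocyte (33.5 and 88.9), Schwann (3.62 and 10.8, on 4 and 5 UMIs) and adipocyte markers (116 and 139) were higher in that set.

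Dbp, the D-box activator whose RNA oscillates strongly in most tissues, had the highest ratio of IMQ over UT of the members in each set. It had 8 UMIs in 8 of 1045 UT barcodes (7.24 CPM, 3.13 to 14.3) and 70 UMIs in 63 of 571 IMQ barcodes (152 CPM, 118 to 192). The intervals lay far apart, and the log2 ratio was 4.39 (3.33 to 5.66), or 20.97-fold. Relative to the median gene it was 5.0, and 99.95% of measured genes had a smaller ratio. No single barcode carried the IMQ count, since 57 of the 63 positive barcodes held exactly 1 Dbp UMI and the highest held 3. The counts were 9 and 99 in the 10% set, a log2 ratio of 4.10, and 10 and 198 over all barcodes, a log2 ratio of 3.68 (2.77 to 4.76). Dbp lies on chromosome 7 (45705088 to 45710203, plus strand, GENCODE M21 on GRCm38), and the last 737 bases of the gene overlap Sphk2 on the other strand. Sphk2 had 7 UMIs in UT against 3 in IMQ in the main set, a log2 ratio of 0.04, and 0 barcodes of either library held both genes.

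**Figure D1:**
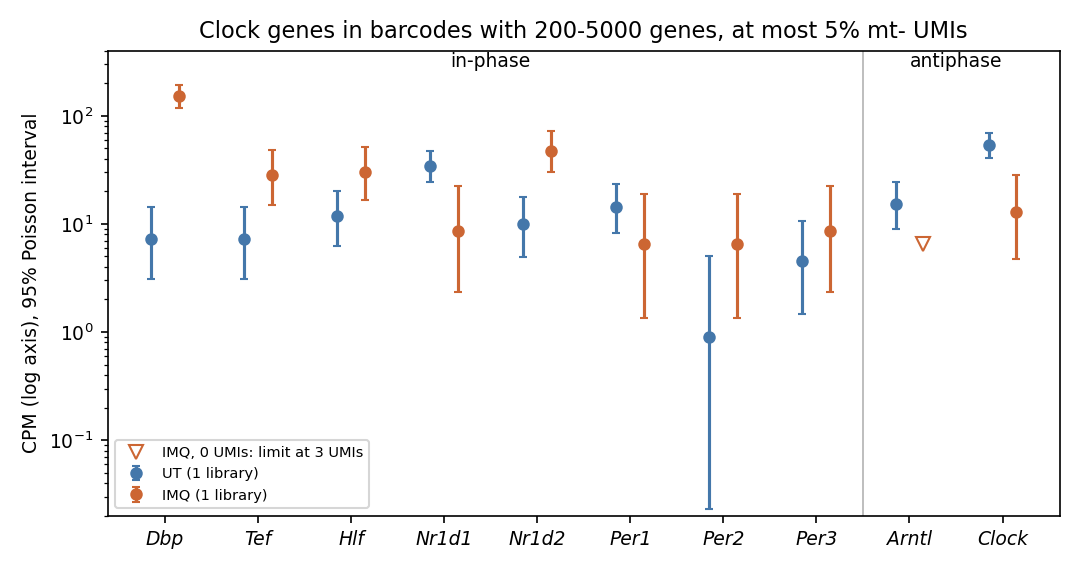
CPM of each clock gene in the UT library (blue) and the IMQ library (orange) on a log axis, in barcodes with 200 to 5000 genes and at most 5% mt- UMIs. Points are library values with 95% Poisson intervals, and the open triangle is the limit that 3 UMIs set for Arntl in IMQ, where it had 0. Dbp at 152 CPM in IMQ against 7.24 in UT is the widest gap, while Clock and Arntl lie lower in IMQ.

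The other D-box factors leaned the same way with fewer counts. Tef (chromosome 15, 81802421 to 81826863, plus strand) had 8 UMIs in UT (7.24 CPM) against 13 in IMQ (28.2 CPM), which gave a log2 ratio of 1.96 (0.58 to 3.44). Its ratio was 1.99 in the 10% set (9 and 23 UMIs) and 1.90 over all barcodes (9 and 52). Hlf (chromosome 11, 90336536 to 90390895, minus) had 13 UMIs in UT (11.8 CPM) against 14 in IMQ (30.4 CPM), which gave a log2 ratio of 1.37 (0.17 to 2.58). Of the 14 IMQ UMIs, 4 were in 1 barcode of 10782 UMIs. Without the barcode with the most Hlf UMIs in each library, the ratio was 1.16 with an interval that spans 0 (-0.24 to 2.53). Tef thus held its ratio in all 3 sets, whereas that of Hlf was 1.02 (-0.11 to 2.19) in the 10% set and 0.21 (-0.64 to 1.10) over all barcodes, with intervals that span 0. Over all barcodes, 6 of the 19 UT Hlf UMIs sat in 1 barcode of 124192 UMIs and 7997 genes, which carried 3514 keratinocyte marker UMIs and 19 fibroblast marker UMIs.

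The REV-ERB repressors went opposite ways in the sums. Nr1d2 (REV-ERBβ, chromosome 14, 18204054 to 18239127, minus) had 11 UMIs in 10 UT barcodes (9.96 CPM) and 22 in 19 IMQ barcodes (47.7 CPM), a log2 ratio of 2.26 (1.16 to 3.45). It stayed higher in IMQ at 1.83 in the 10% set (14 and 32 UMIs) and 1.24 over all barcodes (18 and 66). Nr1d1 (REV-ERBα, chromosome 11, 98767932 to 98775333, minus) had 38 UMIs in 13 UT barcodes (34.4 CPM) and 4 UMIs in 4 IMQ barcodes (8.68 CPM), a log2 ratio of -1.99 (-3.93 to -0.51). The UT count was concentrated in 2 barcodes, which held 15 and 11 of the 38 UMIs. Those barcodes had 24879 and 23202 UMIs, with 545 and 506 keratinocyte marker UMIs but only 4 and 2 fibroblast marker UMIs. Without every barcode that had more marker UMIs of another cell type than of fibroblasts, Nr1d1 stood at 12 UMIs in UT (11.6 CPM) against 4 in IMQ (8.71 CPM), which gave a log2 ratio of -0.41 (-2.50 to 1.31). Relative to the median gene of the remaining barcodes, which was -0.57, this was 0.16, so once those barcodes were left out the direction of Nr1d1 depended on the scale. Nr1d1 also shares 1075 bases at its 3′ end with Thra on the opposite strand, and whether the counting used strand is not given in the sources used here. Thra had 181 UMIs in UT against 24 in IMQ (log2 ratio -1.65), and 6 of the 13 Nr1d1-positive UT barcodes also had a Thra UMI, against 1 of 4 in IMQ. Among all main-set barcodes, 134 of 1045 in UT and 20 of 571 in IMQ had a Thra UMI. The Nr1d1-positive UT barcodes were also deeper, at a median of 1954 UMIs against 741 for all kept UT barcodes. The 2 barcodes rich in Nr1d1 held 1 Thra UMI each.

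**Figure D2:**
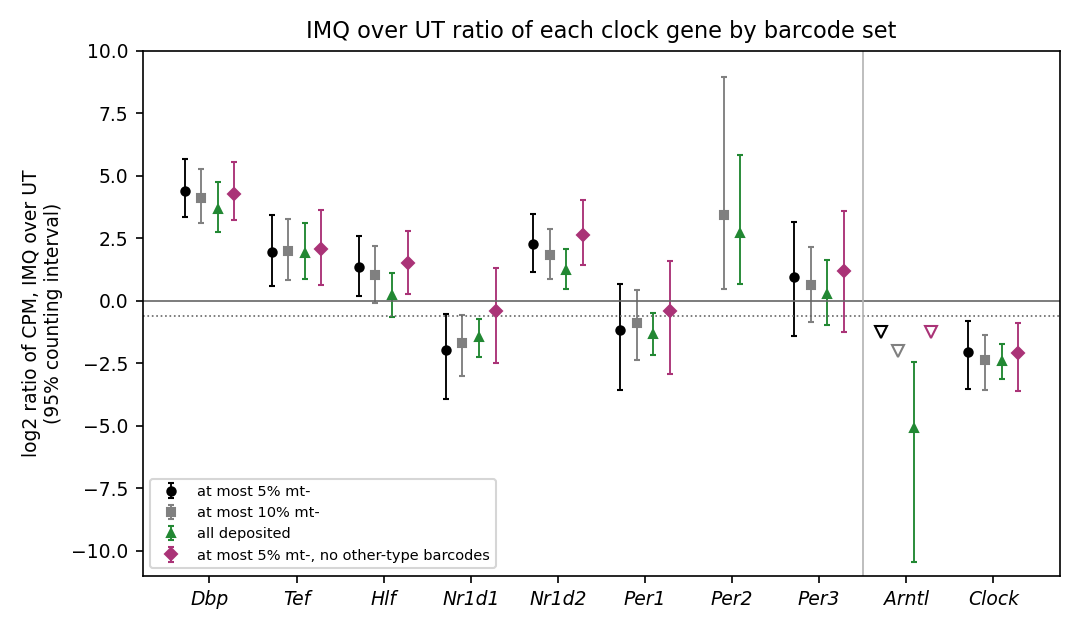
Log2 ratio of CPM, IMQ over UT, for each clock gene in 4 barcode sets (symbols), with 95% counting intervals. The dotted line is the median gene of the main set at -0.61, open triangles enter 0 IMQ UMIs at 3, and Per2 is left out where both libraries had 3 UMIs or fewer. Dbp, Tef and Nr1d2 stay above 0 and Clock below 0 in every set, while Nr1d1 moves to -0.41 without barcodes led by markers of another cell type.

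The Period genes, whose proteins close the negative limb of the loop, were sparse. Per1 (chromosome 11, 69095217 to 69109960, plus) had 16 UMIs in 10 UT barcodes (14.5 CPM) and 3 in 3 IMQ barcodes (6.51 CPM), a log2 ratio of -1.15 whose interval spanned 0 (-3.57 to 0.65). Over all barcodes the counts were 34 and 21, a log2 ratio of -1.32 (-2.18 to -0.50), but 13 of the 34 UT UMIs came from the same keratinocyte-marked barcode of 124192 UMIs that held the Hlf UMIs. Without barcodes led by another cell type, Per1 was at 12 UMIs in UT against 20 in IMQ over all barcodes, a log2 ratio of -0.09 (-1.19 to 1.08). That filter took out the UT barcode but kept an IMQ barcode of 48937 UMIs, with 23 fibroblast marker UMIs, that held 6 of the 20. This ratio thus rests in part on an uneven removal. Per2 (chromosome 1, 91415982 to 91459324, minus) had 1 UMI in UT against 3 in IMQ in the main set, too few for a ratio. It had 1 and 7 in the 10% set, with a log2 ratio of 3.44 (0.48 to 8.94). That is under the minimum of 10 UMIs over both libraries used to count members below. It had 2 and 20 over all barcodes, with a log2 ratio of 2.69 (0.65 to 5.83), and 1 of these 2 UT UMIs was in the barcode of 124192 UMIs. Per3 (chromosome 4, 151003652 to 151044665, minus) had 5 UMIs in UT against 4 in IMQ, then 9 and 9 in the 10% set and 9 and 17 over all barcodes, where the log2 ratio of 0.29 (-0.96 to 1.64) spanned 0. Per3 lies within Camta1 on the same strand, which had 26 UMIs in UT against 7 in IMQ, so tags of the pair may not be fully separable. The ratio of Per2 was therefore above 0 in the wider sets, but on only 1 and 2 UT UMIs. No difference was detectable at this depth for Per1 without barcodes led by another cell type or for Per3.

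The antiphase members, which form the activating heterodimer, were lower in IMQ. Clock (chromosome 5, 76209868 to 76304792, minus) had 59 UMIs in 45 UT barcodes (53.4 CPM, 40.7 to 68.9) and 6 UMIs in 6 IMQ barcodes (13.02 CPM, 4.78 to 28.3). The intervals did not overlap, and the log2 ratio was -2.04 (-3.54 to -0.83), or -1.42 relative to the median gene. It was -2.38 in the 10% set (73 and 9 UMIs) and -2.41 over all barcodes (79 and 23). Arntl (chromosome 7, 113207465 to 113314126, plus) had 17 UMIs in 15 UT barcodes (15.4 CPM) and 0 in 571 IMQ barcodes. With 3 UMIs set as the floor of the IMQ library it was at least 2.36-fold lower. This log2 bound of -1.24 moved to -0.65 with TMM scaling and was -0.63 relative to the median gene. The exact interval of the ratio ended at -0.78, close to the -0.61 of the median gene. The same floor allows a share of up to 0.525% of IMQ barcodes with an Arntl UMI (exact upper limit 0.644%), which limits barcodes with a UMI at this depth and not cells that express the gene. In the 10% set the counts were 19 and 0, at least 4.08-fold lower. Over all barcodes there were 22 UMIs in UT against 1 in IMQ, which gave a log2 ratio of -5.09 (-10.46 to -2.46). The 1 IMQ UMI was in a barcode of 48937 UMIs and 6474 genes. Unlike Nr1d1, Clock was spread thinly in UT, with at most 3 UMIs in a barcode of the main set, and 1 of the 59 Clock UMIs and 1 of the 17 Arntl UMIs fell in barcodes led by markers of another cell type.

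Among in-phase members with at least 10 UMIs over both libraries, 4 of 6 were at least 2-fold higher in IMQ in the main set (Dbp, Tef, Hlf and Nr1d2), beside 4.03% of all 8129 measured genes, and 2 of 6 were at least 2-fold lower (Nr1d1 and Per1), beside 32.1%. Both antiphase members were at least 2-fold lower. In the 10% set, 4 of 7 in-phase members were higher (background 3.78%), 1 was lower (34.7%), and both antiphase members were lower. Over all barcodes, 4 of 8 in-phase members were higher (2.36%), with Per2 in the place of Hlf, 2 were lower (52.3%), and the antiphase pair was lower again. The panel was chosen on this contrast, so nothing is read from these shares. The medians of the measured in-phase members were 1.66, 1.02 and 0.77 in the 3 sets, beside -0.61, -0.69 and -1.04 for all genes. Summed over the 8 in-phase genes there were 100 UMIs in UT against 133 in IMQ in the main set, a log2 ratio of 1.67 (1.29 to 2.06), of which Dbp made up 8 and 70. Without Dbp the sum was 92 and 63, a log2 ratio of 0.71 (0.23 to 1.19), but over all barcodes it was 134 and 234, a log2 ratio of 0.17 (-0.14 to 0.49) that spans 0. The antiphase sum was 76 and 6, a log2 ratio of -2.40 (-3.89 to -1.21). Relative to the median gene of the main set, the in-phase sum was 2.29 and the antiphase sum -1.79.

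**Figure D3:**
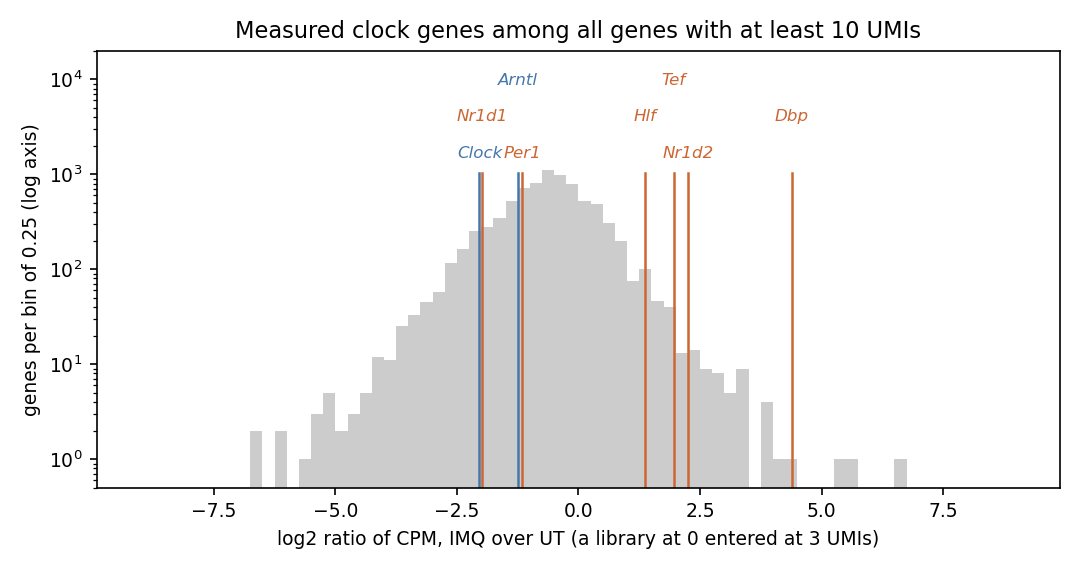
Number of genes per bin of log2 ratio of CPM, IMQ over UT, on a log axis, for the 8129 genes with at least 10 UMIs in the main set, with the measured in-phase members (orange) and antiphase members (blue) as lines. Dbp, Nr1d2, Tef and Hlf lie above 1, where 4.03% of genes lie, and the other measured members lie below -1 among 32.1% of genes.

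Barcodes of other cell types moved with part of this pattern. In the main set 18 UT barcodes had more marker UMIs of another cell type than of fibroblasts (13 led by myeloid and 2 by keratinocyte markers) and 4 IMQ barcodes did (all 4 myeloid). These 18 held 6.25% of UT UMIs, but 26 of 38 Nr1d1 UMIs and 7 of 16 Per1 UMIs, against 0 of 8 for Dbp. Without them the in-phase sum was 60 in UT and 132 in IMQ, which gave a log2 ratio of 2.31 (1.86 to 2.78), and without Dbp as well it was 52 and 63, a log2 ratio of 1.45 (0.90 to 2.01). The antiphase sum stayed at -2.45 (-3.94 to -1.26), Dbp at 4.28 (3.22 to 5.55) and Nr1d2 at 2.63 (1.41 to 4.01). In these barcodes 4 of 6 measured in-phase members were at least 2-fold higher in IMQ (4.70% of all genes) and 0 of 6 at least 2-fold lower (29.6%), while both antiphase members were lower. Over all barcodes treated the same way, 4 of 8 in-phase members were higher (2.62% of genes) and 0 of 8 lower (48.9%), with both antiphase members lower. Nr1d1 and Per1, the members lower in the full sums, both stood at -0.41 in the main set without these barcodes, with intervals that span 0.

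Few barcodes held more than 1 of these genes. At least 1 in-phase member was seen in 46 of 1045 UT barcodes (4.40%) and 97 of 571 IMQ barcodes (17.0%), and at least 2 different ones in 9 and 14. An antiphase member was seen in 59 UT barcodes (5.65%) and 6 IMQ barcodes (1.05%). Both kinds occurred together in 13 UT barcodes, whose median depth was 3264 UMIs, and in 2 IMQ barcodes. The UT barcodes with an in-phase member were deep, at a median of 1926 UMIs against 741 for all kept UT barcodes, whereas the IMQ ones had a median of 750 against 659. To set the libraries at equal depth, each barcode was thinned to 400 UMIs, which left out 73 UT and 33 IMQ barcodes. Dbp was then found in 3 of 972 UT barcodes (0.309%, exact interval 0.0637 to 0.899) and 40 of 538 IMQ barcodes (7.43%, 5.36 to 9.99), compared with 0.766% and 11.03% unthinned. Any antiphase member was found in 21 thinned UT barcodes (2.16%) and 2 thinned IMQ barcodes (0.372%). Nr1d2 was found in 4 thinned UT barcodes (0.412%) and 11 thinned IMQ barcodes (2.04%). Clock genes are active in nearly all cell types, so no cell type could serve as one that should lack them, and the share due to free RNA was not tested.

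The higher Dbp level in IMQ was present in barcodes with up to 10% mt- UMIs, and above that share UT held too few UMIs to compare. Among barcodes with at most 5% mt- UMIs, whatever their gene number, Dbp stood at 6.29 CPM in UT (8 UMIs) and 114 CPM in IMQ (99 UMIs), and from over 5% to 10% it stood at 4.58 CPM (1 UMI) and 84.5 CPM (54 UMIs). From over 10% to 20% the UT value of 35.2 CPM rested on 1 UMI in 49 barcodes, beside 57.9 CPM in IMQ (34 UMIs), a log2 ratio of 0.72 (-1.86 to 6.06), and above 20% UT had 0 UMIs in 11 barcodes and IMQ 42.1 CPM (11 UMIs). Within IMQ the Dbp level was thus lower in each successive class of mt- share, although the intervals of neighbouring classes overlap. By gene number, Dbp was at 6.19 CPM in UT and 108 in IMQ in barcodes with 200 to fewer than 500 genes, and at 8.58 and 117 in those with 500 to 5000 genes. The antiphase sum was 46 and 6 UMIs in the former class, a log2 ratio of -3.58 (-5.10 to -2.35), and 47 and 4 in the latter, a log2 ratio of -1.29 whose interval spanned 0 (-3.22 to 0.16).

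**Figure D4:**
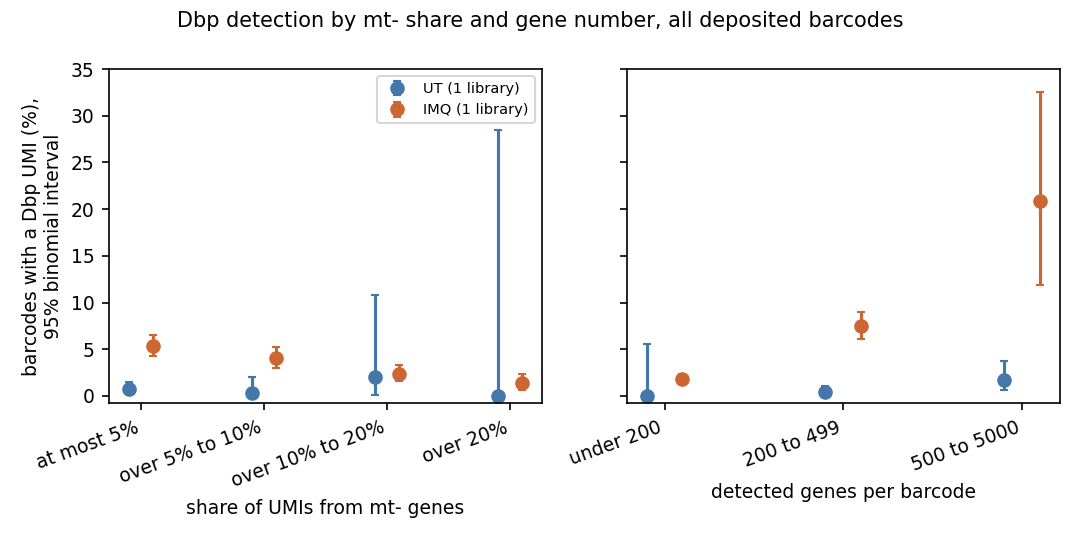
Percent of barcodes with a Dbp UMI by share of mt- UMIs (left) and by detected genes per barcode (right) in the UT (blue) and IMQ (orange) libraries, all deposited barcodes, with 95% exact binomial intervals. In barcodes with 500 to 5000 genes the share was 1.73% in UT and 20.9% in IMQ, and IMQ shares were 5.34% at the lowest mt- share and 1.34% at the highest.

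Dbp was also compared across barcodes that carried marker genes of fibroblast states. In IMQ, a Dbp UMI was found in 12 of 81 barcodes with a UMI of Cthrc1, a secreted regulator of collagen matrix (14.8%, 7.90 to 24.4), and in 51 of 490 without (10.4%, 7.85 to 13.5), and these intervals overlap. Barcodes with Pi16, a marker of fascial and adventitial fibroblasts, gave 5 of 47 (10.6%) against 58 of 524 without (11.1%). Dbp in IMQ was therefore spread over barcodes with and without these markers. In UT, 6 of the 8 Dbp UMIs lay in the 160 barcodes with a UMI of Crabp1, a retinoic acid-binding protein (3.75%, 1.39 to 7.98), and 2 in the 885 without (0.226%, 0.0274 to 0.814). Median depths there were 903.5 and 717 UMIs. In IMQ the shares were 1 of 9 with Crabp1 (11.1%, 0.281 to 48.2) and 62 of 562 without (11.03%, 8.56 to 13.9). In UT, an antiphase gene was seen in 19 of the 160 Crabp1-positive barcodes (11.9%, 7.30 to 17.9) and 40 of the 885 others (4.52%, 3.25 to 6.10). In-phase members other than Dbp were seen in 13 (8.1%, 4.40 to 13.5) and 28 (3.16%, 2.11 to 4.54) of them. Members of both kinds were thus seen more often in the deeper, Crabp1-positive barcodes. These shares were not thinned to equal depth, and barcodes of 1 library are not replicates. Barcodes with at least 10 UMIs of Malat1, a nuclear RNA, held 66 of the 92 UT UMIs of in-phase members other than Dbp, in 33 barcodes of median depth 3648, which included 30 of the 38 Nr1d1 UMIs. In barcodes with fewer Malat1 UMIs, that sum was 26 in UT (28.1 CPM) and 48 in IMQ (113 CPM), which gave a log2 ratio of 2.01 (1.29 to 2.76). The UT barcodes below that Malat1 cut held 8 Nr1d1 UMIs. The 2 keratinocyte-marked barcodes with 15 and 11 Nr1d1 UMIs were therefore among those above it. This split thus overlaps the removal of barcodes led by other cell types, and it also separates deep from shallow barcodes. The part of nuclear RNA in the counts was not tested.

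Of 16 further clock genes 10 had at least 10 UMIs, of which 2 were at least 2-fold higher in IMQ and 0 at least 2-fold lower, with a median log2 ratio of 0.13 (all genes 4.03% and 32.1%, median -0.61). Over all barcodes 0 of 11 were higher and 3 lower, with a median of -0.55 (all genes 2.36% and 52.3%, median -1.04). Rora, an activator at ROR elements and the most abundant, had 143 UMIs in UT against 39 in IMQ, which gave a log2 ratio of -0.61 that equals the median gene. Bhlhe40, an E-box repressor and the next most abundant, had 24 and 41 UMIs, a log2 ratio of 2.03 (1.27 to 2.82), although 15 of the 41 came from 1 barcode. Over all barcodes the ratio of Bhlhe40 was -0.22 (-0.62 to 0.18). There, 1 barcode held 68 of the 94 UT UMIs and 1 held 63 of the 125 IMQ UMIs. Csnk1e, a kinase that marks PER proteins for degradation, had 49 and 13 UMIs, a log2 ratio of -0.65 (-1.66 to 0.25), and is named after its values were seen. The Cry repressors, also named after their values were seen, had 7 UMIs in UT against 4 in IMQ (Cry1) and 17 and 8 (Cry2), with ratios of 0.45 and 0.17 whose intervals span 0. Npas2, a paralog of Clock named for the same reason, had 4 UMIs in UT against 0 in IMQ. Of 6 cycling output genes, 3 were higher and 2 lower in the main set, and 1 was higher and 3 lower over all barcodes (median -1.06), beside the same shares of all genes. Tspan4, a tetraspanin, had 85 and 122 UMIs, a log2 ratio of 1.78 (1.37 to 2.20), whereas Cdkn1a, the cell cycle inhibitor p21, had 296 and 41, a log2 ratio of -1.59 (-2.10 to -1.12). Of 6 glucocorticoid-induced genes 0 passed 2-fold in either direction, with a median of 0.50, Tsc22d3 (GILZ) at 315 and 235 UMIs (0.84) and Dusp1, a phosphatase, at 175 and 139 (0.93). Over all barcodes Tsc22d3 stood at 0.41, whereas Dusp1 turned to -1.05 (-1.26 to -0.83), with 178 of its 418 UT UMIs in 1 barcode. Of 9 immediate early genes, which respond to cell handling, 1 was higher and 4 were lower, with Fos at 663 and 138 UMIs (-1.003) and Junb at 414 and 278 (0.69). Over all barcodes 0 were higher and 8 of 9 lower, and Junb turned to -1.81 (-1.95 to -1.68). In UT, however, 946 of the 1459 Junb UMIs and 1694 of the 2446 Fos UMIs there sat in a single barcode each. The all-barcode ratios of Junb and Fos thus rest largely on single barcodes. The part of these gene lists in the values of the members was not tested.

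The genes whose ratios were closest to those of Dbp over the 3 barcode sets, among 5822 genes with at least 20 UMIs in each set, were Nmb, Ghrh, AY036118, Gm42418 and Cxcl9. The largest difference from the Dbp log2 ratio in any set was 0.83 for Nmb, which had 4 UMIs in UT against 23 in IMQ in the main set, and 1.16 for Cxcl9, an interferon-induced chemokine, which had 2 and 39. Likeness here rests on 2 libraries, and the other members were not ranked.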

How the data were processed

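Single-cell RNA-seq libraries were made by the authors with the Chromium 3′ v3 kit from sorted dermal cells and processed with Cell Ranger (3.0.0 for UT and 3.1.0 for IMQ, per the file headers) on mm10. The deposited matrices hold whole UMI counts per gene and barcode, which the authors neither scaled nor integrated. Aligner settings and use of strand are not given in the sources used here. Barcodes were filtered on genes and mt- UMIs as in the study's methods, and counts were summed per library over the kept barcodes. The main set kept 73.9% of the deposited UT barcodes and 11.3% of the deposited IMQ barcodes. The deposited IMQ matrix holds fewer barcodes than the paper reports as IMQ cells after filtering, so these sets are not the paper's cells. Ratios are of CPM, a library at 0 enters at 3 UMIs, and intervals are exact Poisson, conditional binomial or Clopper-Pearson at 95% (scipy 1.17.1, Python 3.11.15). Interval coverage was tested only on simulated Poisson sums per library. These lack the clumping of UMIs in single barcodes, so coverage for genes with such clumping was not tested. Doublets were kept in the main set, and removal with Scrublet (scanpy 1.11.5) was an alternative, as was scaling by TMM factors (edgeR 4.0.16, R 4.3.3). Members and gene lists were chosen with earlier results of these data known. Beside all members, the 2 most abundant measured genes of each list, antisense partners and the 5 genes most like Dbp were named. Of the 31053 gene identifiers, 30934 were found in GENCODE M21.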

Additional observations from a re-analysis of the deposited data

How the results depend on the processing

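Of 144 recomputed values, 132 stayed within their counting interval (a count of genes, within 1.5 times) and 12 moved out of it. Among the 132, 1 changed sign: Per1, from -1.15 to 0.09 (-3.09 to 2.21) with at least 500 genes per barcode, both with intervals that span 0. Nr1d1 likewise counts as within at -0.65 in that setting, from -1.99. The settings share barcodes and some intervals are wide (Per2 -0.79 to 8.56, Per3 -1.39 to 3.16), so staying within them shows little for sparse members. The in-phase log2 ratio of 1.67 became 0.96 over all barcodes, 2.26 with TMM scaling, 2.27 with median-of-ratios scaling and 2.31 without barcodes led by markers of another cell type. Combined with the wider sets, an alternative chosen after seeing the data, that last filter gave 2.05 and 1.73. The antiphase ratio of -2.40 became -0.95 (-3.28 to 0.70) with at least 500 genes per barcode, where IMQ kept 37 barcodes and 3 antiphase UMIs, and Clock alone was -0.43. The same setting gave no bound for Arntl, which had 0 IMQ UMIs. The IMQ share of barcodes with Dbp, 7.43% thinned, was 11.03% unthinned. The count of 4 in-phase genes at least 2-fold higher was 4 in every setting tried, although Per2 took the place of Hlf over all barcodes, and the Dbp ratio ranged from 3.38 to 4.99. TMM moved the split of genes at least 2-fold higher and lower from 328 and 2611 to 992 and 1228, and Nr1d1 and Clock were then the members at least 2-fold lower, with the bound of Arntl at -0.65. No paired analysis was possible because each group had 1 library. Without replicates, mouse, harvest and treatment cannot be told apart, and 6 of the 10 members had under 20 UMIs in each library.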
